A study of Mus musculus with 2 samples.

Results

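Immature neutrophils that still transcribe the genes of secondary granules were selected from cultures of mouse bone marrow by their own RNA. A barcode was taken as a cell when it held at least 800 unique molecular identifiers (UMIs, each standing for 1 captured RNA molecule) and at least 300 genes, with at most 10% of UMIs from mitochondrial genes. It was taken as an immature neutrophil when S100a8 and S100a9 together made up at least 3% of its UMIs and Camp, Ngp and Ltf together at least 0.5%. These measured values chose the cells, so the levels of the 5 genes are given below as a description only. The rule found 1198 cells among 7911 in the DHT library and 684 among 8746 in the vehicle library, 1882 of 16657 cells in all. Both libraries came from the marrow of 1 wild-type male C57BL/6J mouse aged 3 months and carry the same batch label. The DHT culture received 1 nM dihydrotestosterone (DHT), an androgen, and the vehicle culture an equal volume of ethanol. All cells were kept in hormone-depleted medium, first for 48 h with 5 ng/mL M-CSF and then for 24 h with 100 ng/mL M-CSF, 30 ng/mL RANKL and 10 ng/mL human TNF. Only cells attached to the plate were collected, and the labels call them osteoclast precursors. With 1 library per group no difference has a replicate check and no test was made. Intervals (95%) reflect counting error and nothing else.

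Neutrophils mature in the marrow from promyelocytes through myelocytes and metamyelocytes to band and segmented cells. Granule proteins are made in waves: primary (azurophil) granule proteases in promyelocytes, secondary (specific) granule proteins in myelocytes and metamyelocytes, and gelatinase granule proteins later still. Cell division ends as the cells leave the myelocyte stage, and receptors for chemokines and formyl peptides appear near the end. Type I interferons act on most cells through a receptor whose signal leads transcription factors to a DNA element in the promoters of antiviral genes.

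Promoter sequences are shown first for 3 antiviral genes with large differences between the libraries, Ifit1, Isg15 and Rsad2, and for the granule gene Camp, one of the genes of the rule. Each runs from 250 bases before to 50 bases after the start of the gene in RefSeq, build GRCm38.p6, in the direction of transcription. Capitals mark matches to GAAANNGAAA, the core of the element bound by interferon-regulated factors, searched on both strands with overlaps allowed.
Ifit1, chr19:34640639-34640938, plus strand: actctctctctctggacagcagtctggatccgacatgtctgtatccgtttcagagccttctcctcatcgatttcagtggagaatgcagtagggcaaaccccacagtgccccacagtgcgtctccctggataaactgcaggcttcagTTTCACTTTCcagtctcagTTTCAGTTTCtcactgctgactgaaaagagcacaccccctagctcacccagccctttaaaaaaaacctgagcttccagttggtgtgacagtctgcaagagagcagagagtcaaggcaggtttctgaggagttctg
Isg15, chr4:156200769-156201068, minus strand: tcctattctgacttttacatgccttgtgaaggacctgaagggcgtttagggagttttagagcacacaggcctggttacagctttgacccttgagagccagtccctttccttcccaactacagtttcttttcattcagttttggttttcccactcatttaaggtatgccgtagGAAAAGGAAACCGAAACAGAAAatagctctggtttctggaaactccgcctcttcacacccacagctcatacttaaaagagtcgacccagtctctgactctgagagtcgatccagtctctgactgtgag
Rsad2, chr12:26456403-26456702, minus strand: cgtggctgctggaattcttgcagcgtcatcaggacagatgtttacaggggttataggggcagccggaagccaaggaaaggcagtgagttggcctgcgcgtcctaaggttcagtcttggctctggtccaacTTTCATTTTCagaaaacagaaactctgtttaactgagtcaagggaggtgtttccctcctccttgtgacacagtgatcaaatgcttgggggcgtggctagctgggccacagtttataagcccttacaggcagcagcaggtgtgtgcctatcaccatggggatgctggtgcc
Camp, chr9:109849407-109849706, minus strand: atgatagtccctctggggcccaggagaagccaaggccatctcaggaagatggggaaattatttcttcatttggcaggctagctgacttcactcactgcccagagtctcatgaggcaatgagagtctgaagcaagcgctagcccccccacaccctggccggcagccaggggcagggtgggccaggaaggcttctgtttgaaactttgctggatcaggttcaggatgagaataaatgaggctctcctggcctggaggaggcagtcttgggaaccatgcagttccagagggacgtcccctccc
Ifit1 held 2 matches, Isg15 3 overlapping matches, Rsad2 1 match and Camp none. The windows of Oasl2 and Irf7, antiviral genes also higher with DHT, are not shown and held no match. Over all 27025 genes with a promoter entry, 1079 (3.99%) held a match. Of the 65 genes in the type I interferon list described below, 52 had an entry and 23 of them (44.2%) held one. A match describes the letters of the window and is not a measured binding site.

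The members made up 15.1% of the DHT library's cells (14.4 to 15.95%, exact binomial) and 7.82% of the vehicle library's (7.27 to 8.40%), a share ratio of 1.94 (1.77 to 2.12). Whether there were more of these cells or fewer of the others cannot be told apart from a share. Among cells over the S100a8 and S100a9 threshold the members were 60.6% of 1978 cells with DHT and 60.2% of 1136 cells with vehicle, so cells with and without secondary granule transcripts were in like proportion in both libraries. Members held 32718357 UMIs with DHT (median 19555 per cell) and 15201465 UMIs with vehicle (median 15368). The median mitochondrial share was 0.874% in DHT members and 0.841% in vehicle members. The libraries shared 33 barcode sequences, and none of these was a member in both. A barcode that also occurred in the other library was carried by 4 DHT members and 3 vehicle members. Few cells lay near the thresholds. In the DHT library 16 members had 0.5 to 0.6% of UMIs from Camp, Ngp and Ltf and 19 cells just missed with 0.4 to 0.5%, against 7 and 16 in the vehicle library. Between 3 and 3.5% of S100a8 and S100a9 lay 8 DHT members and 1 vehicle member, and between 2.5 and 3% lay 11 DHT cells and 6 vehicle cells outside.

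**Figure D1:**
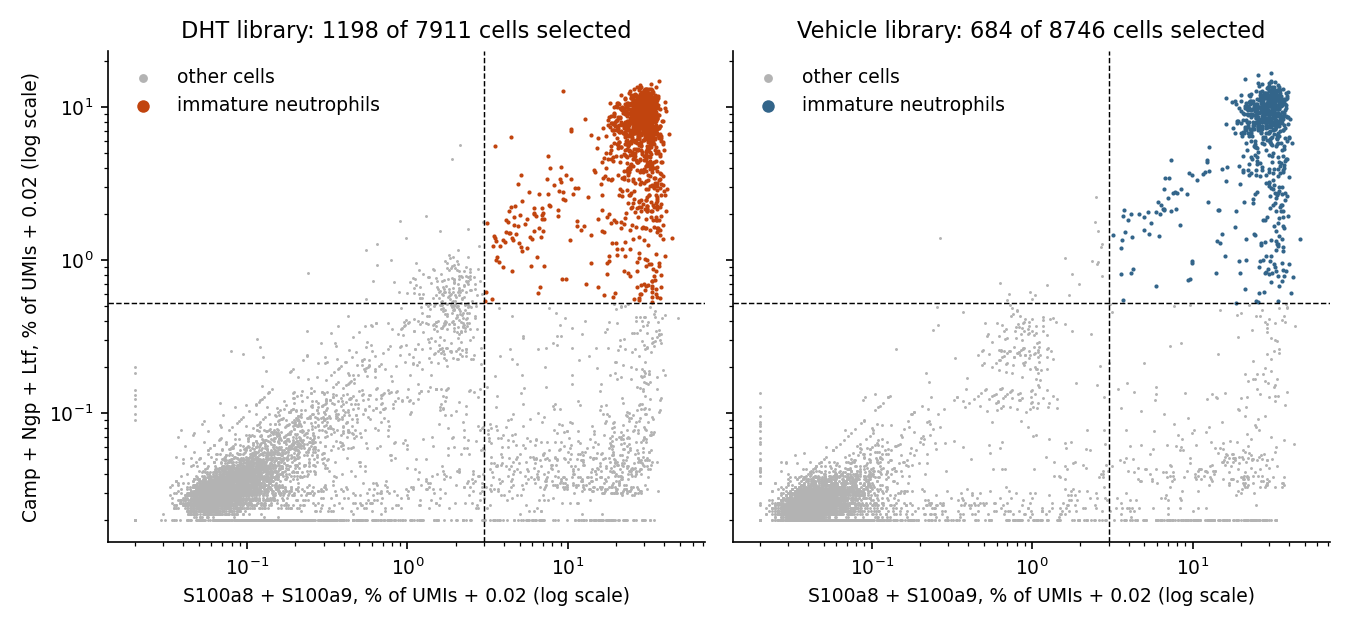
Share of UMIs from S100a8 and S100a9 (x axis, log scale) against the share from Camp, Ngp and Ltf (y axis, log scale) for every cell of the DHT library (left) and the vehicle library (right), each share in percent plus 0.02; dashed lines are the thresholds and coloured points the members. In both libraries most of the members lie far inside the thresholds, with a sparser group between 3 and 10% of S100a8 and S100a9.

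The label was checked against marker genes. Beside the genes of the rule, Lcn2, which binds bacterial iron carriers, made up a median of 1.77% of UMIs in DHT members and 1.71% in vehicle members, and Chil3, a chitinase-like protein of mouse myelocytes, 0.513% and 0.559%. The members furthest from the label were the 84 DHT cells and 47 vehicle cells with 3 to 10% of UMIs from S100a8 and S100a9. They had medians of 71504 and 64433 UMIs and held Acp5, an osteoclast enzyme, at 242 and 209 counts per 1000000 UMIs (CPM). The doublet caller Scrublet marked 61 of these 84 and 36 of these 47 cells, and over all members 80 DHT cells (6.68%) and 39 vehicle cells (5.70%). Their part in the results below was not tested, but each main count was also made without them.

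Levels were summed over the cells of each library, so cells with more UMIs weigh more. The members under 10% of S100a8 and S100a9 were 7.01% of DHT members and 6.87% of vehicle members. They held 19.1% and 20.6% of the members' UMIs. Of the 10 measured secondary granule genes that the rule did not use, none was higher by 1.5-fold or more with DHT, and Orm1 alone (1 gene) was lower by as much. Their median log2 ratio was 0.04. The background was 3.64% of genes higher and 1.58% lower, out of 10778 genes that reached 2 CPM in either library, and the median over them was 0.03. Camp, the precursor of an antimicrobial peptide, was at 28455 CPM in DHT members and 33318 CPM in vehicle members. Ngp, a granule protein of the cystatin fold, was at 24155 and 26694 CPM, and Ltf, the iron-binding lactoferrin, at 5806 and 5157 CPM. These 3 genes chose the cells, so their levels are a description and nothing is read from them. Lcn2 was at 15076 CPM with DHT and 14662 CPM with vehicle, a ratio of 1.03 (1.02 to 1.03). Mmp8, the neutrophil collagenase, was at 429 and 308 CPM, a ratio of 1.39 (1.35 to 1.44), and Cd177, a surface protein stored in these granules, at 578 and 447 CPM. Orm1, an acute-phase plasma protein, was at 118 CPM with DHT and 178 CPM with vehicle, a ratio of 0.663 (0.631 to 0.696).

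Of 10 measured genes of the earlier, primary granules 7 had a negative log2 ratio and the median was -0.21. This direction depended on how the cells were weighted. With equal weight of the dividing, early and late ranges described below, the median was 0.20 and the log2 ratio of Elane 0.20. This alternative was chosen after seeing the data. It leaves out the members under 10% of S100a8 and S100a9 and gives the small early range more weight. Elane had 431 DHT UMIs and 5 vehicle UMIs in the early range, from which no difference is read. It was at 881 and 1007 CPM in dividing members and at 9.27 and 3.77 CPM in late members. In the members under 10% of S100a8 and S100a9 it was at 424 and 911 CPM. Elane, neutrophil elastase, was at 500 CPM in DHT members and 679 CPM in vehicle members, and Prtn3, proteinase 3, at 486 and 613 CPM. Mpo, myeloperoxidase, was at 136 and 135 CPM, and at 358 and 325 CPM in the members under 10% of S100a8 and S100a9. Ctsc, the protease that activates these serine proteases, was the single member at least 1.5-fold higher, at 49.8 CPM with DHT and 21.3 CPM with vehicle. At least 50% of its UMIs lay in 15 DHT cells and 10 vehicle cells. It was at 146 and 64.2 CPM in members under 10% of S100a8 and S100a9, many of them called doublets. In dividing members it was at 30.2 and 9.34 CPM and in late members at 26.0 and 12.5 CPM. Among 9 genes of gelatinase granules and secretory vesicles 1 was higher, Mmp9 (gelatinase B), at 734 CPM with DHT and 480 CPM with vehicle, a ratio of 1.53 (1.49 to 1.57). None of these 9 was lower. Mmp25, a membrane-bound protease, was at 90.2 CPM with DHT and 62.2 CPM with vehicle, a ratio of 1.45.

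Genes of mature neutrophils had a median log2 ratio of 0.28, with 4 of 21 at least 1.5-fold higher and none lower. Cxcr2, the receptor for neutrophil chemokines, was at 213 CPM in DHT members and 139 CPM in vehicle members, a ratio of 1.53 (1.46 to 1.61). Il1r2, a decoy receptor for interleukin 1, was at 14.7 and 9.67 CPM, Ccl6, a chemokine, at 8.99 and 4.34 CPM, and Wfdc17 at 10.5 and 3.49 CPM. Il1r2, Ccl6 and Wfdc17 were under the 20 CPM used for calls over all genes. Csf3r, the G-CSF receptor, was at 169 CPM with DHT and 139 CPM with vehicle, and Il1b was at 29.4 and 33.4 CPM. Among 13 transcription factors of the granulocyte lineage Irf8 was the 1 past 1.5-fold, and it was at 12.7 CPM with DHT and 8.16 CPM with vehicle. Cebpe, the factor that drives secondary granule genes, was at 328 CPM with DHT and 411 CPM with vehicle, a ratio of 0.799 (0.774 to 0.824). Of 7 genes of the NADPH oxidase and of neutrophil traps none passed 1.5-fold. The nearest was Padi4, the enzyme that citrullinates histones, at 176 and 130 CPM.

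Of the 5678 genes that reached 20 CPM in either library, 113 were at least 1.5-fold higher with DHT (1.99%) and 13 were at least 1.5-fold lower (0.229%). The median log2 ratio over the 5678 genes was 0.04. Of the 113 higher genes 46 belonged to the interferon lists, 8 were markers of other cell types, and 59 were in neither. The lists do not hold every gene of their kind: Cxcl10, a chemokine induced by interferon, is in no interferon list. Genes in neither are therefore not shown to be apart from interferon or from stray cells of other types. None of the 13 lower genes was in an interferon list.

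**Figure D2:**
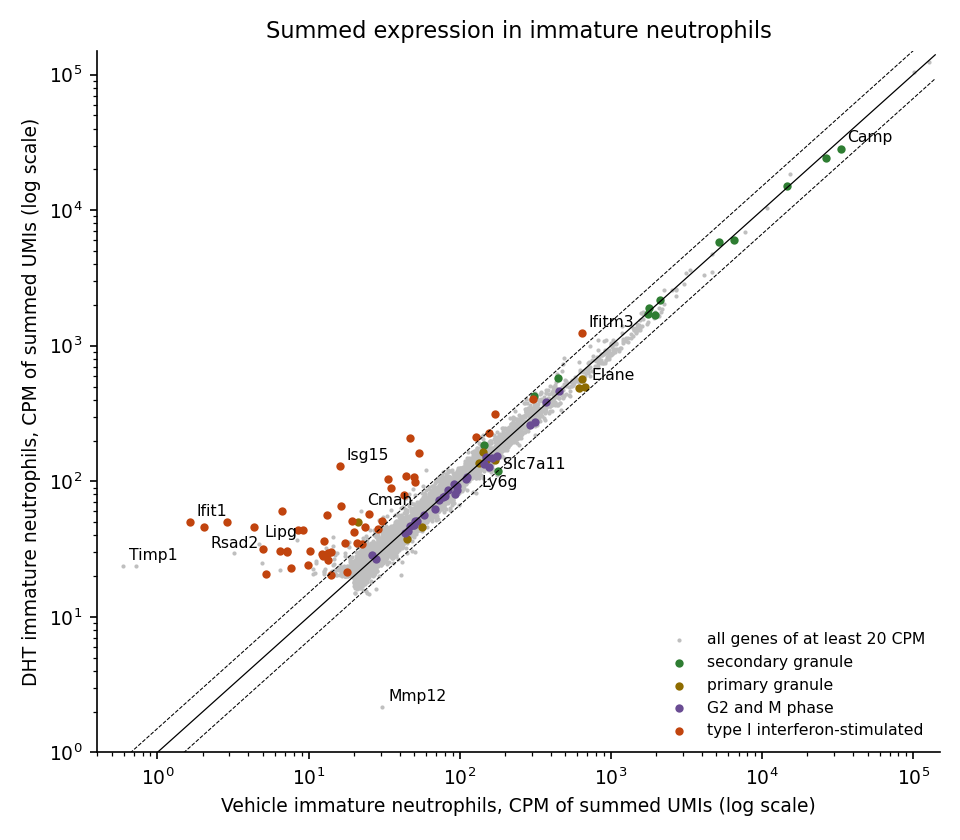
Summed expression of each gene with at least 20 CPM in DHT members (y axis, CPM, log scale) against vehicle members (x axis, CPM, log scale), 1 point a gene, coloured by list; the solid line marks equal levels and the dashed lines 1.5-fold. Genes of secondary granules and of division lie along the solid line, while genes stimulated by type I interferon lie above it, Isg15 at 130 and 16.2 CPM; Mmp12, below the line, rests on few cells.

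The genes stimulated by type I interferon were higher with DHT as a group. Of 62 measured, 57 were at least 1.5-fold higher and none was lower, and the median log2 ratio was 1.55, against 3.64% of all genes and a median of 0.03. The other 5 had ratios above 1. Ifit1, which binds viral RNA that lacks a host cap, was at 50.2 CPM in DHT members and 1.64 CPM in vehicle members, a ratio of 30.5 (20.6 to 47.3). It was seen in 254 DHT cells and 15 vehicle cells. Its neighbour Ifit3 had 448 UMIs in DHT members and 2 UMIs in vehicle members, a ratio of 104 whose interval ran from 28.6 to 862, and it may share reads with its near-identical copy Ifit3b. Rsad2, the antiviral enzyme viperin, was at 46.0 CPM with DHT and 2.04 CPM with vehicle, though 1 DHT cell held 38.2% of its UMIs. These 3 genes were close to 0 in vehicle members.

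The ubiquitin-like protein Isg15 was at 130 CPM with DHT and 16.2 CPM with vehicle, a ratio of 8.04 (7.07 to 9.18). Usp18, the protease that removes it, was at 19.6 and 1.84 CPM. Among the oligoadenylate synthetase genes Oasl2 was at 46.2 CPM with DHT and 4.34 CPM with vehicle, and Oas3 at 56.5 and 13.2 CPM. The Schlafen genes had unlike ratios. Slfn5 was at 49.9 and 2.89 CPM and Slfn4 at 210 and 46.6 CPM, while Slfn2, which was at 405 and 308 CPM, and Slfn9, at 21.4 and 18.1 CPM, stayed under 1.5-fold. Ifitm3, a membrane protein that blocks virus entry, had the highest level of the list, at 1247 CPM with DHT and 646 CPM with vehicle. Zbp1, a sensor of Z-form nucleic acid, was at 31.7 and 5.00 CPM, Ifi204, of the p200 family, at 43.5 and 8.55 CPM, and Rtp4 at 60.1 and 6.71 CPM.

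Irf7, a transcription factor that amplifies the response, was at 43.6 CPM with DHT and 9.21 CPM with vehicle, a ratio of 4.74 (3.98 to 5.68). Stat2 was at 26.4 and 13.5 CPM, and Irf9 at 42.3 and 20.1 CPM. Irf1, another factor induced by interferon, was under 1.5-fold, at 27.8 and 19.5 CPM. Of 13 measured interferon receptors, kinases and sensors none passed 1.5-fold and the median log2 ratio was 0.16. Ifnar1 was at 33.2 and 26.5 CPM and Ifnar2 at 131 and 117 CPM. No UMI of Ifnb1, the gene of interferon beta, was found in the members of either library. Of 24 genes linked to interferon gamma and antigen presentation 12 were at least 1.5-fold higher and none was lower, with a median of 0.58. Irgm1, a GTPase that restricts intracellular microbes, was at 19.2 CPM with DHT and 4.93 CPM with vehicle, whereas Psmb8, an immunoproteasome subunit, was at 136 and 130 CPM.

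**Figure D3:**
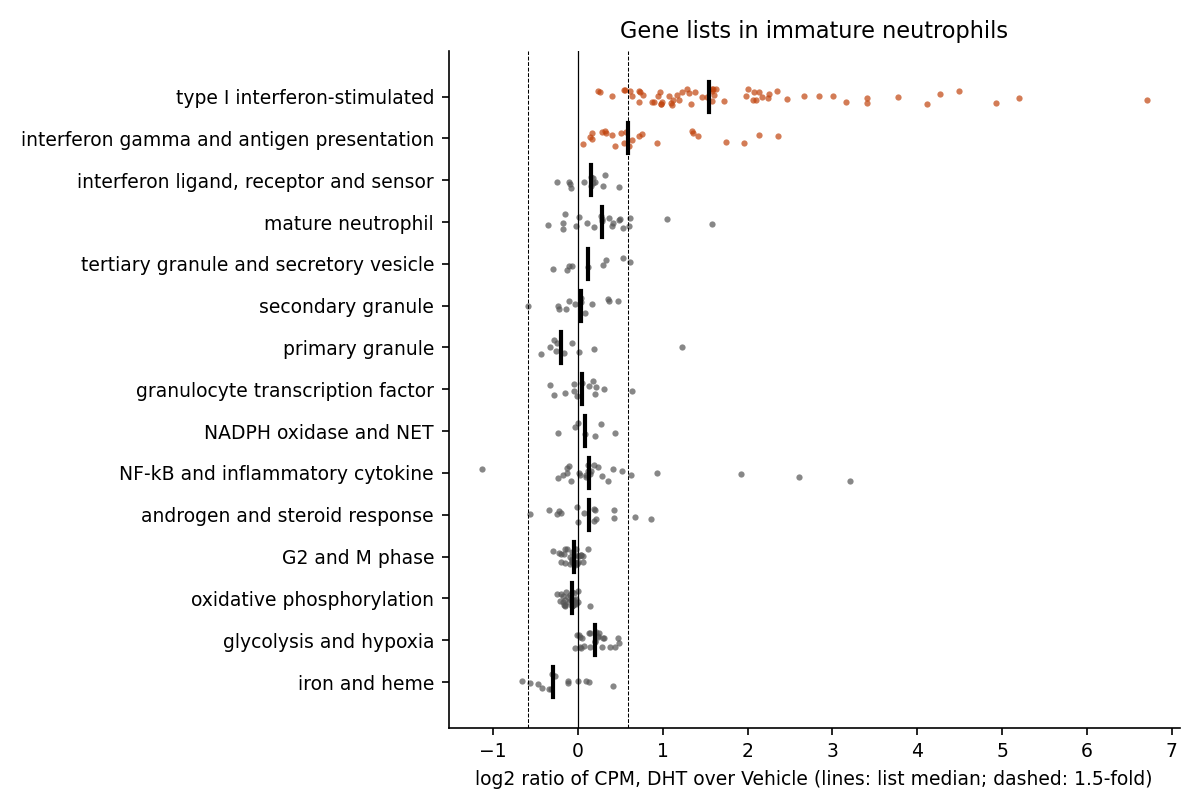
Log2 ratio of CPM, DHT over vehicle (x axis), for the measured genes of 15 lists (rows) in the members; points are genes, thick bars list medians and dashed lines 1.5-fold. The list of type I interferon-stimulated genes stands to the right, median 1.55, and the granule, division and oxidative phosphorylation lists lie close to 0.

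The interferon genes were counted in each cell as a share of its UMIs, over all genes of the list together. The median share was 0.417% in DHT members (quartiles 0.264 and 0.717%) and 0.224% in vehicle members (0.156 and 0.335%). More than 1% was found in 187 DHT members (15.6%, interval 13.6 to 17.8%) and in 4 vehicle members (0.585%, 0.160 to 1.49%). This limit was set after the values were seen and cuts a continuous range, with 116 DHT members and 10 vehicle members between 0.8 and 1.2%. After thinning each cell to 8000 UMIs, which left out 25 DHT members and 42 vehicle members, the DHT library had 179 of 1173 cells over 1% (15.3%) and the vehicle library 2 of 642 (0.312%). Isg15 was then detected in 34.7% of DHT members and 10.9% of vehicle members. Before thinning these shares were 51.3% at a median of 19555 UMIs and 21.2% at a median of 15368 UMIs. Acp5, which these cells should lack, was detected in 11.0% of DHT members and 11.5% of vehicle members after thinning. The vehicle share of Isg15 lies near that of Acp5, but the genes were spread differently. Of 814 Acp5 UMIs in vehicle members, 655 lay in members under 10% of S100a8 and S100a9, against 36 of 246 Isg15 UMIs. Isg15 in the vehicle library was at 16.2 CPM in members and 7.78 CPM in cells under the S100a8 and S100a9 threshold. For Acp5 these levels were 53.5 and 308 CPM. How much of the vehicle Isg15 was stray RNA was not tested.

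Within the DHT library the cells over 1% were mostly late. Of 633 members past division and with late receptors, 163 (25.8%) were over 1%, against 10 of 405 dividing members (2.47%). Those 163 cells had medians of 13786 UMIs, 6.28% of UMIs from Camp, Ngp and Ltf and 0.491% mitochondrial UMIs. The other 470 late cells had medians of 15777 UMIs, 8.19% and 0.565%. The limit of 1% was the same for both ranges, whose shares also differed in the vehicle library. There the median share of interferon genes was 0.312% in late members and 0.146% in dividing members. In the DHT library these medians were 0.568% and 0.248%.

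**Figure D4:**
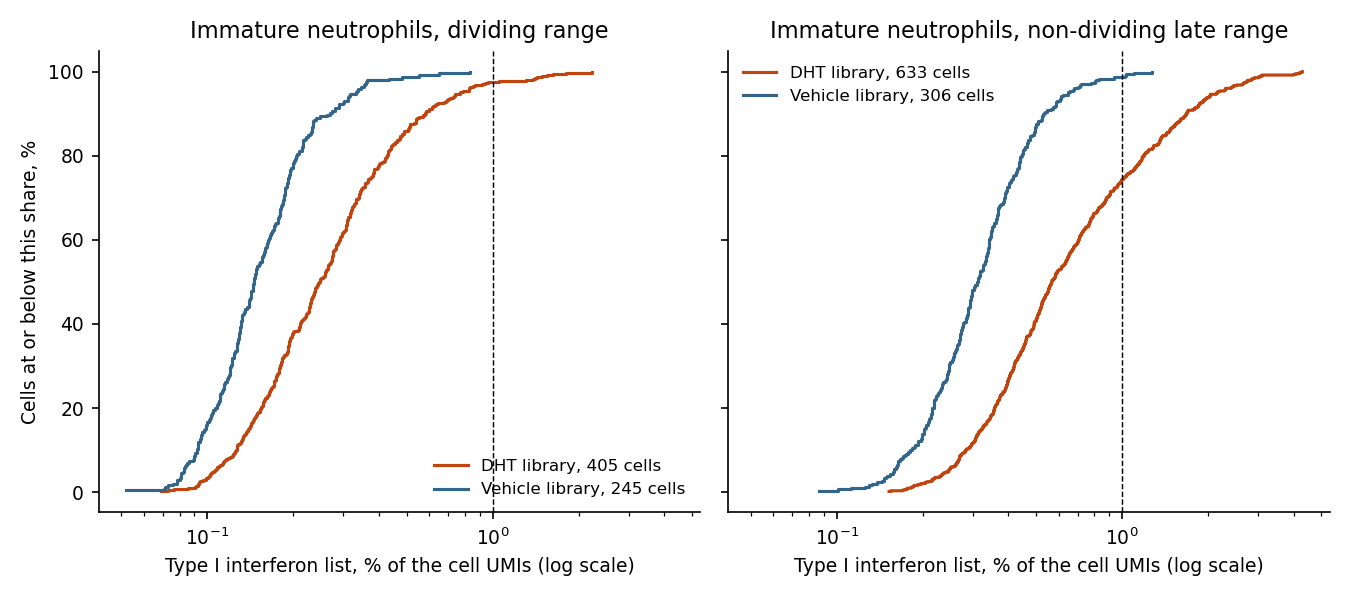
Cumulative share of cells (y axis, percent) at or below a given share of UMIs from the type I interferon list (x axis, percent, log scale) in dividing members (left) and non-dividing late members (right) of each library; the dashed line marks 1%. The DHT curve lies right of the vehicle curve in both panels, and 163 of 633 late DHT members lie past the dashed line, against 4 of 306 late vehicle members.

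Members were split into 4 ranges with limits set after the data were seen. The first held the members under 10% of S100a8 and S100a9. The rest were called dividing when genes of G2 and M phase exceeded 0.2% or genes of S phase 0.1% of UMIs, and the others were called late when Cxcr2, Fpr1 and Fpr2 together reached 0.1% and early below that. Dividing cells were 33.8% of DHT members and 35.8% of vehicle members. Early cells were 6.34% of DHT members (76 cells) and 12.6% of vehicle members (86 cells). Late cells were 52.8% of DHT members (633 cells, interval 49.97 to 55.7%) and 44.7% of vehicle members (306 cells, 41.0 to 48.6%). With 1 library per group these differences in shares were not tested.

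Granule genes that neither the rule nor the limits of the ranges used differed between the ranges in both libraries. Elane was at 881 CPM in dividing DHT members and 1007 CPM in dividing vehicle members, and at 9.27 and 3.77 CPM in late ones. Prtn3 was at 820 and 944 CPM in dividing cells and at 11.5 and 4.35 CPM in late cells. Mmp8 was at 29.7 and 10.6 CPM in dividing cells and at 1255 and 1135 CPM in late cells. Mmp9, past 1.5-fold over all members, had a log2 ratio of 0.21 within the late range, at 1939 CPM with DHT and 1679 CPM with vehicle. Cxcr2, whose level also defines that range, was at 502 and 405 CPM there. The early range was small, and 13.5% of its 4615 genes with at least 20 CPM were at least 1.5-fold higher with DHT. Values of single genes in it are therefore a description, and no difference is read from them.

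The interferon genes were higher with DHT in each range. In dividing members 23 of 30 list genes with at least 20 CPM passed 1.5-fold upward and the median log2 ratio was 0.99, against 1.75% of all genes. In late members the count was 46 of 49 and the median 1.82, against 4.05% of all genes. It was 25 of 34 in early members, against 13.5% of all genes. In the members with low S100a8 and S100a9 it was 46 of 51, against 3.44%. No list gene was 1.5-fold lower in any of the 4 ranges. Isg15 was at 56.7 CPM in dividing DHT members and 12.04 CPM in dividing vehicle members, and at 270 and 28.7 CPM in late ones. Ifit1 was at 8.07 CPM in dividing DHT members and 0.406 CPM in dividing vehicle members, and at 115 and 4.06 CPM in late ones.

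**Figure D5:**
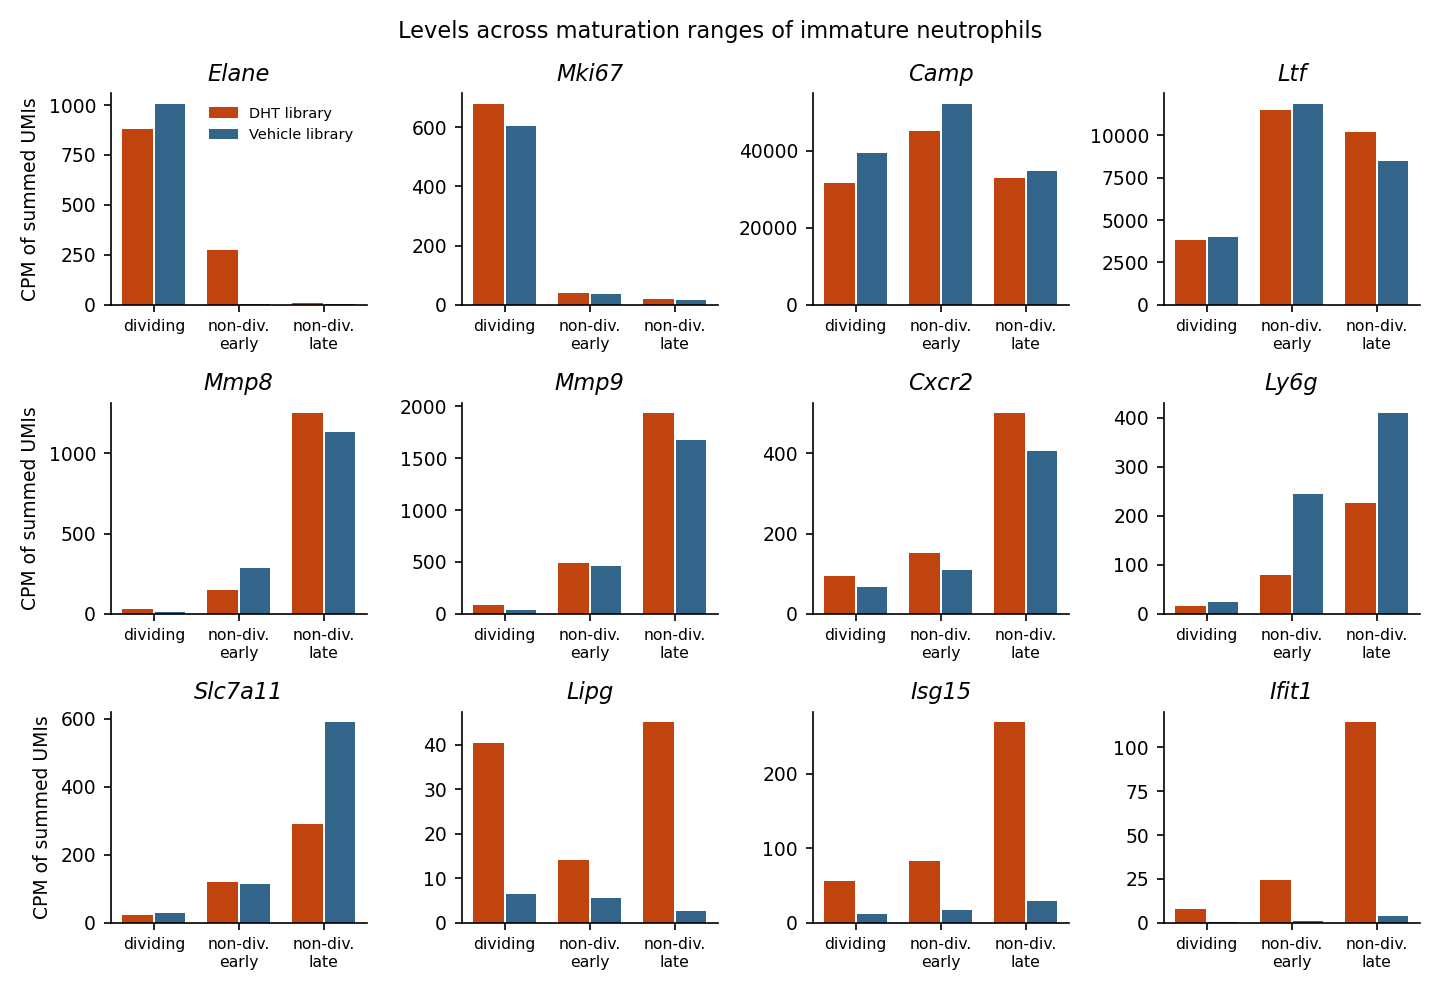
Level of 12 genes (y axis, CPM of summed UMIs, each panel on its own linear scale from 0) in the dividing, non-dividing early and non-dividing late members of the DHT library (orange) and the vehicle library (blue); a bar is 1 library with no replicate. Elane is highest in dividing cells and Mmp8 and Mmp9 in late cells of both libraries, and the place of Mki67 and Cxcr2 follows from how the ranges were set. Isg15 and Ifit1 are higher with DHT in dividing and late cells. No difference of a single gene is read from the small early range, where Ifit1 has 1 vehicle UMI.

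Outside the interferon lists, Lipg showed one of the larger differences spread over many cells. It encodes endothelial lipase, a phospholipase of lipoproteins, and was at 34.7 CPM in DHT members (376 cells) and 4.67 CPM in vehicle members (44 cells), a ratio of 7.43 (5.85 to 9.59). After thinning it was detected in 19.3% of DHT members and 3.43% of vehicle members. Cells under the S100a8 and S100a9 threshold had it in 0.0896% of 4463 DHT cells and in 0 of 6988 vehicle cells, which at 3 counts allows up to 0.0429%. Its level in cells under the S100a8 and S100a9 threshold was 0.110 CPM with DHT and 0.00472 CPM with vehicle. In cells over that threshold with low Camp, Ngp and Ltf it was 0.797 and 0.171 CPM. It was at 40.5 and 6.49 CPM in dividing members and at 45.2 and 2.61 CPM in late members.

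Some further genes, chosen here after their values were seen, were past 1.5-fold over many cells. Cmah, the enzyme that makes N-glycolylneuraminic acid in mice, was at 60.2 CPM with DHT and 22.3 CPM with vehicle. Ifitm6 was at 809 and 487 CPM. Il31ra, a receptor subunit for interleukin 31, was at 88.1 and 48.8 CPM and Ccr1, a chemokine receptor, at 81.0 and 46.0 CPM. Treml2, a surface receptor of myeloid cells, was at 75.8 and 44.2 CPM, and Pim1, a kinase induced by cytokines, at 43.7 and 25.3 CPM. Of the 67 higher genes in no interferon list 52 had a promoter entry and 9 (17.3%) held the motif shown above, against 4.07% of genes with at least 20 CPM.

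Among the genes lower with DHT, Ly6g, the surface marker of mouse neutrophils, was at 82.1 CPM in DHT members and 127 CPM in vehicle members, a ratio of 0.645 (0.608 to 0.684). In late members it was at 226 and 411 CPM. In cells with low Camp, Ngp and Ltf it was at 101 and 97.7 CPM. Slc7a11, which imports cystine for glutathione synthesis, was at 111 and 176 CPM over all members and at 291 and 592 CPM in late ones. Tnfsf13b (BAFF), a survival factor for B cells, was at 25.6 CPM with DHT and 41.7 CPM with vehicle. Tnfsf13 (APRIL), which acts on plasma cells, had a ratio of 0.591 (0.515 to 0.677). Lmo1, a transcriptional cofactor, was at 30.3 CPM with DHT and 50.9 CPM with vehicle. Nkg7 was at 29.3 and 44.8 CPM and Trem2, a lipid receptor of macrophages, at 30.5 and 48.1 CPM.

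Several of the largest ratios rested on single cells. One DHT cell held 95.1% of the DHT UMIs of Timp1 (23.7 CPM with DHT and 0.592 CPM with vehicle) and one held 96.9% of those of Csmd1 (23.9 and 0.724 CPM). One vehicle cell held 51.8% of the vehicle UMIs of Mmp12, a macrophage elastase, at 2.17 and 30.7 CPM. One vehicle cell likewise held 52.1% of those of H2-Aa and one 50.9% of those of H2-Eb1, genes of antigen presentation on MHC class II. Cxcl10, a chemokine induced by interferon, was at 29.7 and 3.22 CPM, with 26.0% of its DHT UMIs in 1 cell. In all, 14 of the 113 higher genes and 3 of the 13 lower genes had at least 50% of their UMIs in 10 or fewer cells.

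Some markers of other cell types were present in the members, and some differed between the libraries. Summed monocyte markers were at 107% (DHT) and 214% (vehicle) of their level in cells under the S100a8 and S100a9 threshold. Progenitor markers were at 133% and 359% of that level, and macrophage markers at 26.4% and 23.3%. Of 11 macrophage markers 6 were at least 1.5-fold higher with DHT, with summed levels of 317 CPM in DHT members and 230 CPM in vehicle members. Of 6 monocyte markers 5 were higher (1150 and 1055 CPM), with F13a1 at 38.7 and 14.5 CPM. At least 50% of the UMIs of each of these 5 lay in 3 to 11 DHT cells and 2 to 4 vehicle cells, and of each of the 6 macrophage markers in 4 to 8 DHT cells and 2 to 4 vehicle cells. Of 10 osteoclast markers 1 was higher, the protease Mmp9, which neutrophils also make (1022 and 786 CPM, Calcr at 0 in both). None of 7 progenitor markers passed (1433 and 1774 CPM). All 4 measured stromal markers were higher (29.6 and 1.91 CPM), in few cells, and 2 of 5 B cell markers. No erythroid marker reached 2 CPM. Of 5 dendritic cell markers 3 were lower (127 and 197 CPM, Xcr1 at 0 in both). The osteoclast markers, summed, were at 59.7% (DHT) and 45.5% (vehicle) of their level in cells under the S100a8 and S100a9 threshold. Single genes differed. Acp5 was at 17.8% of its level there with DHT and at 17.4% with vehicle. Itgb3, at 13.5 and 13.2 CPM in members, was at 361% and 647%. Ifit1 was at 325% and 150% of its level there, and Isg15 at 132% and 208%. With members over 0.5% of macrophage and osteoclast UMIs left out, 56 interferon genes were at least 1.5-fold higher, and with Scrublet calls left out 55 were.

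Genes of division lay within 1.5-fold of each other between the libraries. Of 30 genes of G2 and M phase none passed 1.5-fold in either direction, and the median log2 ratio was -0.05. Mki67, a marker of dividing cells, was at 386 CPM in DHT members and 370 CPM in vehicle members. None of 30 S phase genes passed, with a median of -0.09. Of 30 nuclear genes of oxidative phosphorylation none passed, with 29 below 0 and a median of -0.07. None of 24 genes of glycolysis and the hypoxia response passed, with 22 above 0 and a median of 0.20: Hif1a was at 80.7 CPM with DHT and 58.0 CPM with vehicle. Of 14 genes of iron, heme and the oxidant response 1 was lower, Slc7a11, and none higher, with a median of -0.29 that became 0.07 with equal weight of the 3 maturation ranges. The ferritin chain Ftl1 was at 3477 and 4651 CPM and Fth1 at 3325 and 4153 CPM. By range, Fth1 was at 1145 and 1128 CPM in dividing members and at 4223 and 6250 CPM in late members. In early members it was at 3094 and 1879 CPM, a description from which no difference is read.

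The next lists are read against the 3.64% of all measured genes that were at least 1.5-fold higher and the 1.58% that were lower. Of 21 genes of the unfolded protein response 1 was at least 1.5-fold higher, and of 17 immediate early genes 2 were. Of 20 genes of apoptosis and survival 2 were at least 1.5-fold lower, and of 6 stefins 2 were higher. Of these, Stfa1 had 39.1% of its DHT UMIs and 50.6% of its vehicle UMIs in 1 cell each, and Csta2 had 50% or more of its UMIs in 5 cells of each library. The stefin median lay between -0.17 and 0.64 over the alternatives. Of 26 genes of NF-kB and inflammatory cytokines 5 were higher and 1 was lower, with a median of 0.13. Of the 5, Cxcl10 is described above. Tnf was at 48.6 CPM in DHT members and 43.6 CPM in vehicle members and Nfkbia at 549 and 588 CPM, while Il1rn, the interleukin 1 receptor antagonist, was at 35.3 and 22.8 CPM. Of 16 measured androgen and steroid response genes 2 were at least 1.5-fold higher, the others lay between, and the median was 0.13. Fkbp5, which steroid receptors induce in many cells, was at 63.4 CPM with DHT and 54.8 CPM with vehicle.

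The interferon genes also differed in the cells over the S100a8 and S100a9 threshold that had few secondary granule transcripts. In the 780 DHT cells and 452 vehicle cells over the S100a8 and S100a9 threshold with less than 0.5% of UMIs from Camp, Ngp and Ltf, 42 of 47 list genes with at least 20 CPM were at least 1.5-fold higher and the median log2 ratio was 1.54, against 2.08% of 6118 genes. These cells held Ngp at 597 and 539 CPM, Camp at 241 and 274 CPM, and Elane at 2451 and 3217 CPM. Over 1% of UMIs from the interferon list was found in 167 of the DHT cells (21.4%) and 2 of the vehicle cells (0.442%). In the members 44 of 48 genes with at least 20 CPM passed, with a median of 1.30. With no replicate the difference between these medians was not tested. Of the cells under the S100a8 and S100a9 threshold, 846 of 5933 (14.3%) in the DHT library and 45 of 7610 (0.591%) in the vehicle library were over 1%.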

How the data were processed

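Adherent marrow cells were sequenced as 2 droplet 3′ libraries, 1 per group. The authors deposited raw UMI counts per gene and barcode for 32285 genes. The counts come from Cell Ranger 7.0.1, per the submitters' processing notes. The builds GRCh38 and mm10 are named without a role, per the submitters' processing notes. Cell calling, intron counting and strand were not given in the sources used here, so overlapping genes cannot be told apart. Close paralogs (the Ifit, Slfn, Oas and stefin genes) may share reads.

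The members, gene lists and alternatives were chosen with earlier results of these data known. The 4 maturation ranges, the 1% limit of interferon genes and 2 alternatives were set after the data were seen. Counts were summed over members of a library and divided by their total (CPM). Intervals are exact Poisson, Clopper-Pearson or conditional binomial intervals at 95%. That of the share ratio is instead a normal approximation on the log scale. A gene counted as higher or lower at 1.5-fold, among genes with at least 20 CPM, or 2 CPM for list members. A library at 0 was set to 3 counts, and a gene with 3 or fewer counts in both libraries got no ratio. With 1 library per group no p-value was made. UMIs of 1 cell are not independent, so intervals are too narrow for cell-to-cell variation.

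Named genes are the 12 highest and 12 lowest past 1.5-fold, leaving out predicted genes and those for ribosomal proteins, immunoglobulins, the mitochondrion, Xist and the Y chromosome, the 4 members at either end of each list, all members of neutrophil lists and 17 genes chosen by name. Others are said to be chosen after their values were seen. A gene of a list is also named to give its values. Doublets were called with Scrublet (scanpy 1.11.5, expected rate 8%) and kept in the main counts. Python 3.11.15, numpy 2.4.6, scipy 1.17.1 and pandas 2.3.3 were used.

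On simulated counts for these members, 100% of genes changed 2-fold and 0% of genes changed 1.2-fold passed, as did 0% of 5401 unchanged genes. The true ratio lay within its interval for 95.1% of genes. The simulation held counting error only. Values of some genes are not reported here.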

Additional observations from a re-analysis of the deposited data

How the results depend on the processing

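No paired analysis was possible because each group has 1 library. Over 21 settings the count of interferon genes at least 1.5-fold higher lay between 53 and 58, against 57, except with a minimum of 50 CPM, where fewer genes are measured and it was 19. With that minimum 39 genes were higher and 4 lower, and with 5 CPM 245 and 58, against 113 and 13. The count of lower genes was 24 with cells thinned to 8000 UMIs, 45 with at least 2% of UMIs from Camp, Ngp and Ltf, 36 without members over 0.2% of G2 and M phase genes, and 26 with equal weight of 4 bins of granule share. The cause was not tested. The share ratio of 1.94 (1.77 to 2.12) was 2.34 among cells with at least 8000 UMIs and 1.01 among cells over the S100a8 and S100a9 threshold. Of 28 named genes past 1.5-fold, 13 stayed past it in the same direction in all settings that gave a value, among 580 values of which 574 kept their sign. The 6 reversed values were log2 ratios of genes that rest on single cells. Csmd1 had -0.10 without the 10% of members with the most UMIs and -0.055 at S100a8 and S100a9 of at least 10%. At that limit H2-Eb1 had 0.66 and H2-Aa 0.57, and with equal weight of the dividing, early and late ranges, an alternative chosen after seeing the data, 3.02 and 3.32. Mmp9, past 1.5-fold over all members, had log2 ratios down to 0.20, and Cxcr2 down to 0.36. TMM and median of ratios scaling each moved all log2 ratios by 0.04. With the 1% of members richest in each gene left out for that gene, also added after seeing the data, 105 genes were higher, 14 lower and 55 interferon genes higher. Which genes passed also varied. Of the 113 higher and 13 lower genes, 73 and 4 passed with equal weight of the maturation ranges, 88 and 7 after thinning, 85 and 6 by the mean of each cell, 88 and 11 without Scrublet calls, and 93 and 10 with the richest 1% left out. The median of the S phase list lay between -0.33 and 0.03, that of oxidative phosphorylation between -0.19 and 0.01, and the log2 ratio of Mpo between -1.79 and 0.97 and of Il1b between -0.68 and 0.32. Depth limits genes under 2 CPM and the small early range.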
